A study of Mus musculus with 12 samples.

Results

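The genes of the eukaryotic translation initiation factors (eIFs) were examined for H3K36ac, the acetylated form of lysine 36 of histone H3, at their promoters. Members were the mm10 RefSeq protein-coding genes whose symbol starts with Eif and a digit from 1 to 6, followed by letters or digits, and 56 of 21900 protein-coding genes met this rule. The data were peak lists from H3K36ac ChIP-seq, in which chromatin bound by an antibody against the mark is sequenced beside unselected input chromatin of the same sample. The 6 samples came from testes of mice of the 129S1/Sv background at postnatal day 5 (Pnd 5), 3 of them wild type (WT) and 3 from Sirt7 knockout mice (Sirt7-/-), which lack the gene in all cells and not in germ cells alone, and were numbered as replicates 2, 3 and 4 of each genotype. SIRT7 is an NAD+-dependent deacetylase of the sirtuin family, and H3K36ac is one of its substrates. Each sample held 50000 spermatogonia-enriched cells of a different mouse, prepared by letting somatic cells attach to a culture dish, so that all samples were mixtures and not pure cell populations.

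Peak calling had been done by the authors, sample by sample, with the input of that sample as control. The lists held 906, 64 and 294 peaks in WT replicates 2, 3 and 4, and 2840, 2045 and 2591 in the Sirt7-/- replicates of the same numbers. A gene was counted as called in a sample when a peak of that list reached within 3 kb of its start. The lists hold no read coverage. A missing call therefore says only that no peak passed the authors' threshold there, and fewer cells carrying the mark cannot be told apart from less of the mark per cell. The fold of a peak over input and its rank by that fold were compared only within a list. Sirt7 itself had a peak in 0 of 3 WT and 0 of 3 Sirt7-/- samples, so the lists do not check the genotype labels. Among markers of the labelled cell type, 5 of 13 spermatogonial genes were called in a Sirt7-/- sample, Zbtb16, Dazl, Etv5, Gfra1 and Uchl1, each in 1 sample, and 0 in a WT sample. Over all protein-coding starts, the shares with a call in at least 1 sample were 19.3% in Sirt7-/- and 5.12% in WT. Of 5 Sertoli cell markers, Sox9 and Dhh were each called in 1 Sirt7-/- sample, and of 6 Leydig and peritubular markers 0 were called. Their part in the results below was not tested.

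Translation of most mRNAs starts when eIF4F, made of the cap-binding protein eIF4E, the scaffold eIF4G and the helicase eIF4A, opens the start of the message for the small ribosomal subunit. That subunit arrives with eIF1, eIF1A, the large complex eIF3 and a ternary complex of eIF2, GTP and initiator tRNA. When the start codon is found, eIF5 triggers GTP hydrolysis on eIF2, eIF5B joins the large subunit, and eIF2B recharges eIF2 with GTP unless one of the eIF2 alpha kinases has phosphorylated it. In the mouse testis this machinery also has a Y-linked member, Eif2s3y, known for its requirement in the proliferation of spermatogonia.

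The promoters on which the results turn are shown from 250 bases before to 50 bases after the RefSeq start (GRCm38.p6, the assembly behind mm10), each read 5′ to 3′ on the strand of the gene. Eif5 and Eif4a1, the genes called in 5 of 6 samples, come first, then Eif3a, which had the best mean rank among the genes called in every Sirt7-/- but no WT sample. Eif2s1 and Eif4g1 follow for their central roles, and last 2 genes that were called in no sample. Capitals mark, on either strand, the E-box core CACGTG, the GC box GGGCGG, the CCAAT box, the ETS core CCGGAAG and the TATA box TATAAA. The windows are, in order, chr12:111537851-111538150, plus strand, chr11:69672374-69672673, minus strand, chr19:60790644-60790943, minus strand, chr12:78861822-78862121, plus strand, chr16:20672477-20672776, plus strand, chrX:159371928-159372227, plus strand and chr5:143817542-143817841, plus strand. The Eif4g1 window belongs to a RefSeq start 7 bp downstream of the start of the gene.
Eif5: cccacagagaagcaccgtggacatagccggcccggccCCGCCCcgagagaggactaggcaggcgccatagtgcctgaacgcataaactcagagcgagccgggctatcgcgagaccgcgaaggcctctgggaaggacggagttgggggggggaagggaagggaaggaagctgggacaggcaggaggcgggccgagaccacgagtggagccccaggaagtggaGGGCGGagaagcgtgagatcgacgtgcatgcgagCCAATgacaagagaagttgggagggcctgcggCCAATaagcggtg
Eif4a1: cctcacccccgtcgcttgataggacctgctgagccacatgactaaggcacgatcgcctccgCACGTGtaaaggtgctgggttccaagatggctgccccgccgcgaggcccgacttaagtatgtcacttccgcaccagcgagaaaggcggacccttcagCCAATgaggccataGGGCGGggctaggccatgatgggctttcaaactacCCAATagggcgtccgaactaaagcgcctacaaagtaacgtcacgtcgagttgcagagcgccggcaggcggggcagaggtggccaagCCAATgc
Eif3a: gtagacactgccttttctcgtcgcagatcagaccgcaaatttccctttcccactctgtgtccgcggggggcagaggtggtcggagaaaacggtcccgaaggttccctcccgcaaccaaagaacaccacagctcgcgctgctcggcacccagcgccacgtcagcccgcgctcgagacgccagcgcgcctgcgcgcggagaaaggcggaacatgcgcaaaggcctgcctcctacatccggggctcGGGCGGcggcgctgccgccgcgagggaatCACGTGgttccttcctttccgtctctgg
Eif2s1: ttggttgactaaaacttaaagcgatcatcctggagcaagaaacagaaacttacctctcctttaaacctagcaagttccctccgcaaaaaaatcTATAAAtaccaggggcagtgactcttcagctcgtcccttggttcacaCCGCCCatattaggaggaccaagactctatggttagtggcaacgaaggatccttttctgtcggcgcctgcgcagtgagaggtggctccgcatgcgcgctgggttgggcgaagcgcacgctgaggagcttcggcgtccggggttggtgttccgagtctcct
Eif4g1: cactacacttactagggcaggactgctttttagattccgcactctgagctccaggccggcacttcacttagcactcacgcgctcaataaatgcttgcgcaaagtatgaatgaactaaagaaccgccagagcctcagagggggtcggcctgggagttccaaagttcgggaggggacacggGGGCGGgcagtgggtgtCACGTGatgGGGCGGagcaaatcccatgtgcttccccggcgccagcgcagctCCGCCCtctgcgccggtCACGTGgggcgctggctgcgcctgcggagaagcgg
Eif1ax, called in no sample: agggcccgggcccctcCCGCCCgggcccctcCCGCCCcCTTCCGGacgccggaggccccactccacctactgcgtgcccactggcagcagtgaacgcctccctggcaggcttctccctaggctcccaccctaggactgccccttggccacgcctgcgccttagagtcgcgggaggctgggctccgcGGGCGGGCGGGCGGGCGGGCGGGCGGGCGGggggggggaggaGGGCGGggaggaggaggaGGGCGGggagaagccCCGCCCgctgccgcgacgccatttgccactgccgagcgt
Eif2ak1, called in no sample: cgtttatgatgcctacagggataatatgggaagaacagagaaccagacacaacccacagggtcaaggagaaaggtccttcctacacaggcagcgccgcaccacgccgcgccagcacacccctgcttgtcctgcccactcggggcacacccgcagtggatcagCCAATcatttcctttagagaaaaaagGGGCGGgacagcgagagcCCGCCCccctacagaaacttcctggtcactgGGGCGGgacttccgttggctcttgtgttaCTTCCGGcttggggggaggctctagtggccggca

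Eif4e and Eif5a are shown at 2 starts each, because their peaks lay over or beside a RefSeq start inside the gene and away from the outermost one. The windows are chr3:138525941-138526240, plus strand and chr3:138527018-138527317, plus strand for Eif4e, and chr11:69921909-69922208, minus strand and chr11:69920898-69921197, minus strand for Eif5a. The inner start lay 1077 bp downstream of the outer one in Eif4e and 1011 bp downstream in Eif5a.
Eif4e, outer start: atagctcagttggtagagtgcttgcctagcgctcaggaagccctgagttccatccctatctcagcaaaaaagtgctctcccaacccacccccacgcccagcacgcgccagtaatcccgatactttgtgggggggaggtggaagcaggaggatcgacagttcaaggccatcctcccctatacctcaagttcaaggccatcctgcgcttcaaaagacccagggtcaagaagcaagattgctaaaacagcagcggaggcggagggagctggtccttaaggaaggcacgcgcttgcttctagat
Eif4e, inner start: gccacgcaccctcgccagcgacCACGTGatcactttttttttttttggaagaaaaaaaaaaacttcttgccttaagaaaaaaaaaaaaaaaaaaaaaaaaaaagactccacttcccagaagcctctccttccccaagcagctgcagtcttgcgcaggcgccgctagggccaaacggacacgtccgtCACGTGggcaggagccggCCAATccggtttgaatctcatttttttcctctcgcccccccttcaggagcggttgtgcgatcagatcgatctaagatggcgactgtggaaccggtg
Eif5a, outer start: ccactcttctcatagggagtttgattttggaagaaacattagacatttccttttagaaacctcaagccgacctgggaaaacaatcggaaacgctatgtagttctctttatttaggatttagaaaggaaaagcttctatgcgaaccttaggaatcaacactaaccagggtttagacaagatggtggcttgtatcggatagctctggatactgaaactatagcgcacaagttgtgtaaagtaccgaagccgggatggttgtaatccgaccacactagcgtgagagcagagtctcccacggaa
Eif5a, inner start: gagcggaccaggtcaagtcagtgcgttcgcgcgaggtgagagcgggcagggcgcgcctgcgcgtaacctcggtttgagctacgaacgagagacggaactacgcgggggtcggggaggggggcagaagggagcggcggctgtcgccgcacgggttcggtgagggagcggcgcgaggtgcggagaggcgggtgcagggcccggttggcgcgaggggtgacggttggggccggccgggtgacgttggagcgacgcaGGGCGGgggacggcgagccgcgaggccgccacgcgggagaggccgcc

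Peaks at initiation factor genes were found in every sample, and in far more of these genes in Sirt7-/- than in WT samples. The number of the 56 genes called was 11, 1 and 3 in WT replicates 2, 3 and 4 and 24, 23 and 24 in the Sirt7-/- replicates. The highest WT sample stayed below the lowest Sirt7-/- sample. The mean was 5.0 ± 5.29 genes in WT and 23.7 ± 0.577 in Sirt7-/- (SD, n = 3 each), a difference of 18.7 genes that exceeds both SDs. The size of this difference varied with the peaks kept. With peaks at a common minimum -log10 p of 5.99 in every list, it was 11.3 genes. When each list was cut to its 64 peaks of highest -log10 q, the length of the shortest, few calls were left, with means of 1.33 genes in WT and 0.667 in Sirt7-/-, and the difference turned to -0.667.

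Each count was set beside the share of all 21467 protein-coding starts with a known strand that were called in the same list. In WT the share of initiation factor genes was 19.6%, 1.79% and 5.36% in replicates 2, 3 and 4, where 4.38%, 0.317% and 1.35% of all starts were called. In Sirt7-/- it was 42.9%, 41.1% and 42.9%, where 13.2%, 9.73% and 11.7% of all starts were called. The share of the initiation factor genes was thus the higher one in all 6 lists, the lists of WT included. The ratio of both shares was 4.7 ± 0.855 in WT and 3.71 ± 0.487 in Sirt7-/- (SD, n = 3 each), and its per-sample values overlapped, from 3.97 to 5.64 and from 3.25 to 4.22. The WT ratios of replicates 3 and 4, 5.64 and 3.97, rested on only 1 and 3 called genes. In the longer Sirt7-/- lists, the number of initiation factor genes was larger while their share relative to other genes was not.

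**Figure D1:**
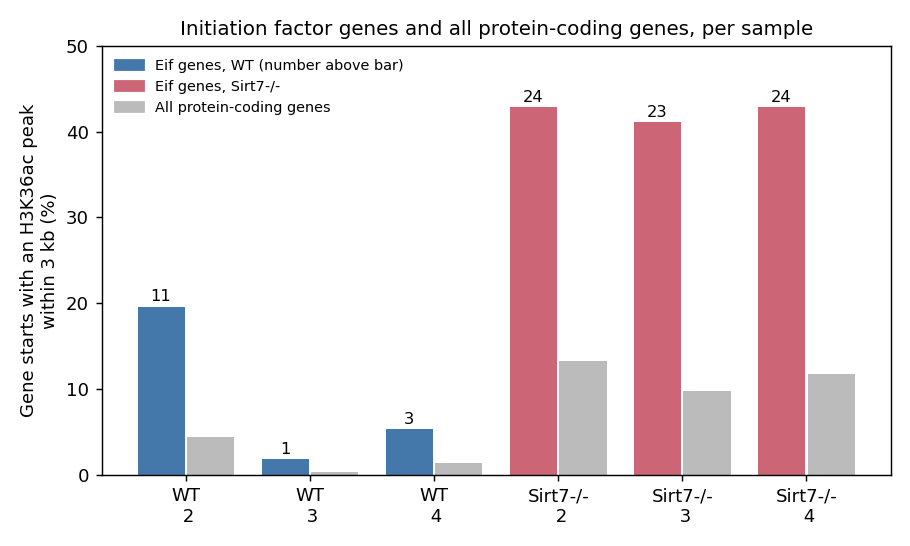
Share of gene starts with an H3K36ac peak within 3 kb in each sample, in percent, for the 56 initiation factor genes (coloured bars, with the number of genes above) and for all 21467 protein-coding starts (grey bars). In each of the 6 samples the coloured bar is the taller one, at 41.1% to 42.9% in the Sirt7-/- samples and 1.79% to 19.6% in the WT samples.

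Over the 3 replicates of a genotype, 36 of the 56 genes (64.3%) were called in at least 1 Sirt7-/- sample, against 19.3% of all starts. In at least 2 Sirt7-/- samples it was 23 genes (41.1%, against 10.3% of all starts), and in all 3 it was 12 genes (21.4%, against 5.09%). In WT, 12 genes (21.4%, against 5.12% of all starts) were called at least once, 11 of them in replicate 2, and 3 genes, Eif5, Eif4a1 and Eif4g1, were called in 2 samples (5.36%, against 0.825%). All 12 genes called in WT were also called in a Sirt7-/- sample, as were 997 of the 1099 starts called in WT. Thus 0 initiation factor genes were called in WT alone, against 0.475% of all starts.

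The genes with a peak in every Sirt7-/- sample and in no WT sample were Eif3a, Eif3j1, Eif2s1, Eif4e2 and Eif5a (8.93%, against 2.45% of all starts). Fisher's exact test on the calls of 1 gene, two-sided with 3 samples against 3, cannot go below p = 0.1, the value of these 5 genes, and 0 of the 21467 starts had an unadjusted p under 0.05 (Benjamini-Hochberg adjusted p = 1.0 for each). Without WT replicate 2 this class held 10 genes, and without Sirt7-/- replicate 2 or replicate 3 it held 8. No share of all starts was set beside these counts, so they do not compare the genes with others. No initiation factor gene was called in all 6 samples.

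**Figure D2:**
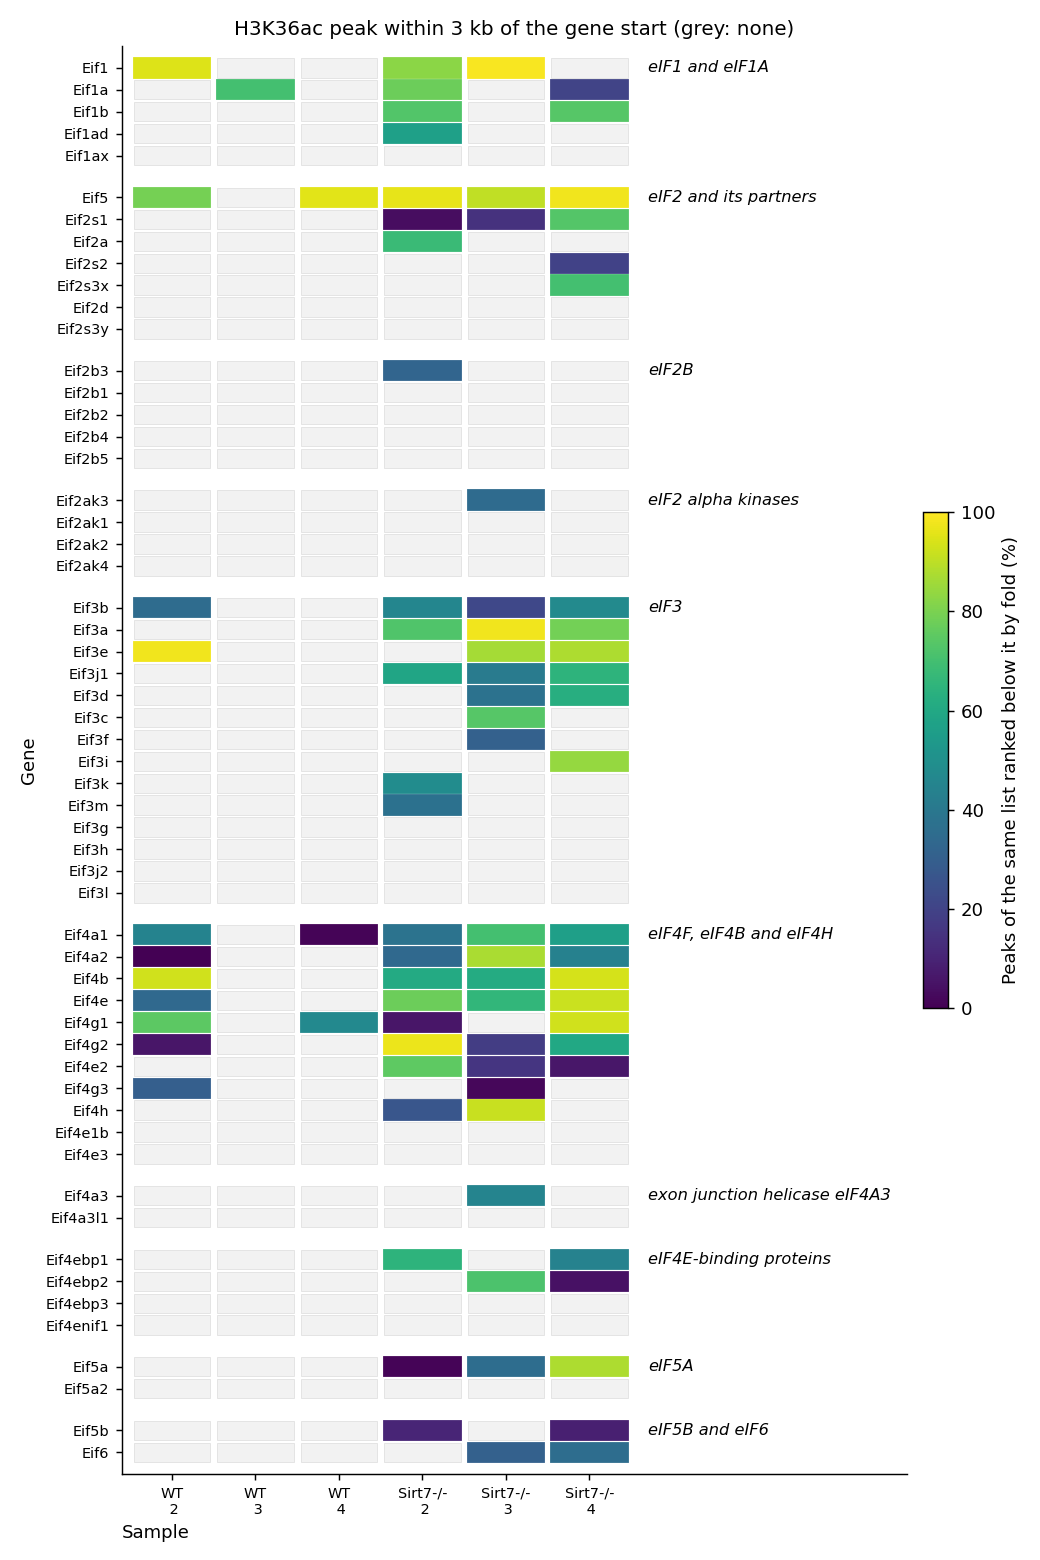
Calls at the 56 initiation factor genes (rows, grouped by complex) in the 6 samples (columns). A coloured box is a peak within 3 kb of the gene start, with the share of peaks of the same list that rank below it by fold as its colour, and a grey box is no peak. Most coloured boxes of the 3 WT columns stand in WT replicate 2 and in the eIF4F group, and 20 rows are grey throughout.

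The genes of eIF4F and its cofactors eIF4B and eIF4H held the largest number of calls. Of 11 genes, 9 were called in at least 1 Sirt7-/- sample, 8 in at least 2 and 6 in all 3. In at least 1 WT sample it was 7. The shares of all starts were 19.3%, 10.3%, 5.09% and 5.12%, in that order. By sample, 7, 0 and 2 of the 11 genes were called in WT replicates 2, 3 and 4 and 8, 8 and 7 in the Sirt7-/- replicates. Eif4a1 and Eif4a2, the genes of the helicase subunit, were both called in all 3 Sirt7-/- samples, as were Eif4b, whose product stimulates that helicase, Eif4e, the gene of the cap-binding subunit, Eif4e2, the gene of a cap-binding protein known as a repressor, and Eif4g2, the gene of a scaffold that does not bind eIF4E. Of these 6, Eif4a1 was also called in 2 WT samples, Eif4a2, Eif4b, Eif4e and Eif4g2 in WT replicate 2, and Eif4e2 in no WT sample.

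At Eif4a1 (gene ID 13681, minus strand, start at position 69672423 of chromosome 11) the peaks were 519 and 322 bp wide in WT replicates 2 and 4, and 667, 410 and 674 bp in Sirt7-/- replicates 2, 3 and 4. Their folds over input were 4.36 and 4.05 in WT and 3.88, 5.12 and 4.17 in Sirt7-/-. The peaks ranked 501 of 906 and 291 of 294 in WT, and 1759 of 2840, 609 of 2045 and 1135 of 2591 in Sirt7-/-. The widths of both genotypes overlapped, and the WT replicate 4 peak was among the weakest of its list. All 5 peaks began between 208 and 348 bp downstream of the start, beyond the window printed above.

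At Eif4e2 (gene ID 26987, plus strand, start at position 87213911 of chromosome 1) the Sirt7-/- peaks were 680, 243 and 432 bp wide with folds of 4.54, 4.18 and 3.53. They ranked 708 of 2840, 1730 of 2045 and 2434 of 2591, so that the call rested on low-ranking peaks in 2 of 3 samples. Eif4g1, the gene of the main scaffold, was called in WT replicates 2 and 4 and in Sirt7-/- replicates 2 and 4. Its widths were 746 and 270 bp in WT and 339 and 754 bp in Sirt7-/-, which overlap. Its rank was 227 of 906 and 156 of 294 in WT, and 2677 of 2840 and 191 of 2591 in Sirt7-/-. Eif4g3, the gene of a related scaffold, was called in WT replicate 2 and in Sirt7-/- replicate 3, and Eif4h, whose product like eIF4B stimulates the helicase, in Sirt7-/- replicates 2 and 3. Eif4e1b and Eif4e3, genes of further eIF4E-like proteins, were called in no sample.

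Among the genes of eIF2 and its partners, Eif5 had the highest mean rank and the widest peaks in the Sirt7-/- samples. Eif5 (gene ID 217869, plus strand, start at position 111538101 of chromosome 12) encodes the protein that triggers GTP hydrolysis on eIF2. Its peaks were 661 and 910 bp wide in WT replicates 2 and 4, and 1564, 1150 and 1582 bp in Sirt7-/- replicates 2, 3 and 4. Every Sirt7-/- peak was wider than both WT peaks, with means of 785.5 ± 176.1 bp (SD, n = 2) and 1432.0 ± 244.4 bp (SD, n = 3). The folds were 5.03 and 6.61 in WT and 5.61, 5.95 and 6.04 in Sirt7-/-, and the ranks 188 of 906 and 13 of 294, and 106 of 2840, 193 of 2045 and 53 of 2591. The 5 Eif5 peaks thus lay among the stronger ones of each list in which they were called, and all 5 covered the whole promoter window printed above. WT replicate 3, with 64 peaks in all, had none.

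Eif2s1, the gene of the eIF2 alpha subunit that the eIF2 alpha kinases phosphorylate (gene ID 13665, plus strand, start at position 78862072 of chromosome 12), was called in all 3 Sirt7-/- samples only. Its peaks were 458, 690 and 345 bp wide with folds of 3.45, 4.16 and 4.45, at ranks 2740 of 2840, 1750 of 2045 and 696 of 2591. The start of Atp6v1d lies 64 bp away on the other strand and was nearer to the midpoint of the replicate 4 peak, so that these calls cannot be given to one of both genes. The genes of the other eIF2 subunits had 1 call each, in Sirt7-/- replicate 4, namely Eif2s2 for the beta subunit and Eif2s3x for the X-linked gamma subunit. Eif2s3y, the Y-linked gamma subunit gene, was called in no sample. Eif2a, whose product can bring initiator tRNA to the ribosome without eIF2, was called in Sirt7-/- replicate 2, with the start of Serp1 63 bp away, and Eif2d, the gene of another tRNA-delivering factor, in no sample. Of these 7 genes, 5 were called in at least 1 Sirt7-/- sample and 1 in WT, beside 19.3% and 5.12% of all starts.

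Of the 5 genes of eIF2B, the exchange factor of eIF2, only Eif2b3 was called, in Sirt7-/- replicate 2 with a peak of 214 bp. Eif2b1, Eif2b2, Eif2b4 and Eif2b5 were called in no sample. Of the 4 eIF2 alpha kinase genes, Eif2ak3, which encodes the kinase of the endoplasmic reticulum stress response, was called in Sirt7-/- replicate 3 with a peak of 238 bp. Eif2ak1, the gene of the heme-regulated kinase, Eif2ak2, that of the kinase activated by double-stranded RNA, and Eif2ak4, that of the kinase activated by uncharged tRNA, were called in no sample. For calls in at least 1 Sirt7-/- sample, 1 of 5 and 1 of 4 genes stand beside 19.3% of all starts, so that neither group was clearly below or above other genes. The difference from the other groups was not tested.

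The 14 genes of eIF3, which binds the small ribosomal subunit and bridges it to eIF4G, were called in 5, 7 and 6 cases in Sirt7-/- replicates 2, 3 and 4, and in 2, 0 and 0 cases in WT. Of them, 10 were called in at least 1 Sirt7-/- sample, 5 in at least 2, and 3 in all 3, namely Eif3a, Eif3b and Eif3j1. The shares of all starts were 19.3%, 10.3% and 5.09%, in that order. Eif3a, the gene of the largest scaffold subunit (gene ID 13669, minus strand, start at position 60790693 of chromosome 19), had Sirt7-/- peaks of 927, 239 and 631 bp and no WT peak. Their folds were 4.48, 6.84 and 4.61, at ranks 780 of 2840, 45 of 2045 and 549 of 2591. The replicate 2 peak covered the window printed above, and the other two began 165 and 113 bp downstream of the start.

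Eif3j1, the gene of the loosely bound eIF3j subunit (gene ID 78655, plus strand, start at position 122028580 of chromosome 2), had Sirt7-/- peaks of 817, 317 and 241 bp. Their folds were 4.19, 4.54 and 4.3, at ranks 1169 of 2840, 1203 of 2045 and 911 of 2591. At Eif3b, the gene of a subunit that holds eIF3a, eIF3g and eIF3i together, the peak was 383 bp in WT replicate 2 and 1378, 1189 and 1068 bp in the Sirt7-/- samples. All 3 Sirt7-/- peaks at Eif3b were therefore wider than the WT peak, and all 4 crossed the start. Eif3e had the highest fold of an initiation factor gene in WT replicate 2, 6.35 at rank 18 of 906, and was called in Sirt7-/- replicates 3 and 4 with folds of 5.73 and 4.91. Its peaks were narrow, 365 bp in WT and 241 and 259 bp in Sirt7-/-. Eif3d, the gene of the subunit with a cap-binding fold, was called in Sirt7-/- replicates 3 and 4. Single calls were found at Eif3k and Eif3m in replicate 2, Eif3c and Eif3f in replicate 3, and Eif3i in replicate 4. The start of Map4k1 lies 160 bp from that of Eif3k, and the start of Tmem234 21 bp from that of Eif3i. Eif3g, Eif3h, Eif3l and Eif3j2 were called in no sample.

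Of the 5 genes for eIF1, eIF1A and their relatives, 4 were called in a Sirt7-/- sample, 3 in at least 2 and 0 in all 3. The shares of all starts were 19.3%, 10.3% and 5.09%, in that order. Eif1, whose product guards the choice of the start codon, had narrow and high peaks of 250 bp in WT replicate 2 and 269 and 281 bp in Sirt7-/- replicates 2 and 3. Their folds were 5.85, 4.77 and 7.57, and the Sirt7-/- replicate 3 peak ranked 18 of 2045, the best rank of an initiation factor gene in that list. Eif1a held the single call of WT replicate 3, a peak of 268 bp at rank 19 of 64, and peaks of 1263 and 276 bp in Sirt7-/- replicates 2 and 4. The start of Tmed7 lies 169 bp from that of Eif1a and was nearer to the midpoint of the Sirt7-/- replicate 4 peak. Eif1b, a close relative of Eif1, was called in Sirt7-/- replicates 2 and 4. Eif1ad was called in Sirt7-/- replicate 2, with the start of Banf1 63 bp away, and the X-linked Eif1ax in no sample.

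Of the 4 genes of eIF5A, eIF5B and eIF6, 3 were called in at least 1 Sirt7-/- sample and 0 in WT, beside 19.3% and 5.12% of all starts. Eif5b, the gene of the subunit-joining GTPase, was called in Sirt7-/- replicates 2 and 4 at ranks 2550 of 2840 and 2366 of 2591, both near the end of their lists, and the replicate 4 peak lay nearer to the start of Txndc9, 716 bp from that of Eif5b. Eif6, whose product keeps the large ribosomal subunit from joining too early, was called in replicates 3 and 4. Eif5a, the gene of the hypusine-containing factor that assists peptide bond formation (gene ID 276770, minus strand, start at position 69921958 of chromosome 11), had peaks of 408, 391 and 817 bp with folds of 3.31, 4.45 and 4.92. They ranked 2810 of 2840, 1323 of 2045 and 315 of 2591, a range from nearly the last peak of a list to its upper part. Its relative Eif5a2 was called in no sample.

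The eIF4E-binding proteins, which keep eIF4E from eIF4G when mTOR is inactive, were represented by Eif4ebp1, called in Sirt7-/- replicates 2 and 4, and Eif4ebp2, called in replicates 3 and 4. Eif4ebp3 and Eif4enif1, which encodes a carrier of eIF4E into the nucleus, were called in no sample. Eif4a3, which encodes a helicase of the exon junction complex and no initiation factor in the strict sense, was called in Sirt7-/- replicate 3 with a peak of 874 bp. Its intronless copy Eif4a3l1 was called in no sample. Because the authors kept only reads that map to 1 place, missing calls at genes with a close copy elsewhere, such as Eif4a3l1, Eif3j2, Eif2s3y and Eif1ax, are uncertain.

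**Figure D3:**
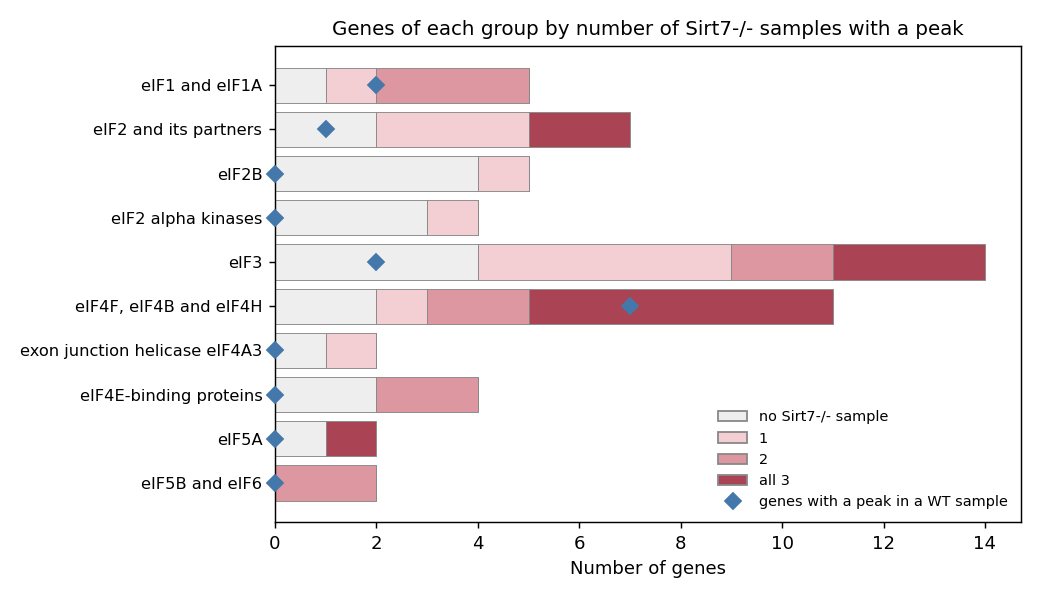
Number of initiation factor genes in each group by the number of Sirt7-/- samples with a peak (grey to dark red bars, in genes) and the number with a peak in at least 1 WT sample (blue diamonds). The eIF4F group holds 6 genes called in all 3 Sirt7-/- samples and 7 called in WT. For 5 groups both numbers are 0, namely eIF2B, the eIF2 alpha kinases, eIF4A3, the eIF4E-binding proteins, and eIF5B with eIF6. These groups have 2 to 5 genes, and the shares of all starts were 5.09% and 5.12%, so 0 is near those shares. In at least 2 Sirt7-/- samples, 2 of 4 eIF4E-binding protein genes and 2 of 2 genes of eIF5B and eIF6 were called, beside 10.3% of all starts.

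Widths were compared at the 12 genes called in both genotypes. At 7 of them (58.3%), Eif5, Eif4e, Eif3b, Eif4a2, Eif4b, Eif1 and Eif1a, every Sirt7-/- peak was wider than every WT peak, against 52.9% of the 997 starts called in both genotypes, so the share was close to that of all genes. At Eif4e the width was 290 bp in WT replicate 2 and 1193, 1357 and 1904 bp in the Sirt7-/- samples, the last being the widest peak of an initiation factor gene in the 6 lists. At Eif4b it was 291 bp in WT and 532, 443 and 387 bp in Sirt7-/-. The margin was small at Eif1, Eif1a and Eif4a2. Their narrowest Sirt7-/- peaks had 269, 276 and 487 bp, beside a single WT peak each of 250, 268 and 473 bp. The 276 bp peak of Eif1a lay from -641 to -366 bp and the WT peak from 106 to 373 bp, so these were different regions. At Eif3e and Eif4g3 the WT peak was wider than every Sirt7-/- peak of the gene, and at Eif4a1, Eif4g1 and Eif4g2 the widths overlapped. The median width over all peaks at initiation factor genes was 383.0, 268.0 and 322.0 bp in WT and 561.5, 391.0 and 458.5 bp in Sirt7-/-, beside 376.0, 272.0 and 300 bp and 491.0, 456.5 and 468.0 bp for all promoter peaks of the same lists.

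The peaks lay mainly downstream of the start, inside the first part of the gene. Of the 86 peaks at initiation factor genes in the 6 lists, 74 had their midpoint downstream and 21 spanned the start. In the Sirt7-/- lists, 83.3%, 91.3% and 75.0% of these midpoints were downstream, beside 83.9%, 82.9% and 83.8% of all promoter peaks, so the position was like that of other genes. The median midpoint was 267.5, 332.0 and 400.5 bp downstream, beside 300.5, 304.0 and 327.5 bp for all promoter peaks, whose distance was taken from the nearest start. The initiation factor gene was the nearest start of the table for 78 of the 86 peaks, and 12 of the 56 genes had another protein-coding start within 3 kb.

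**Figure D4:**
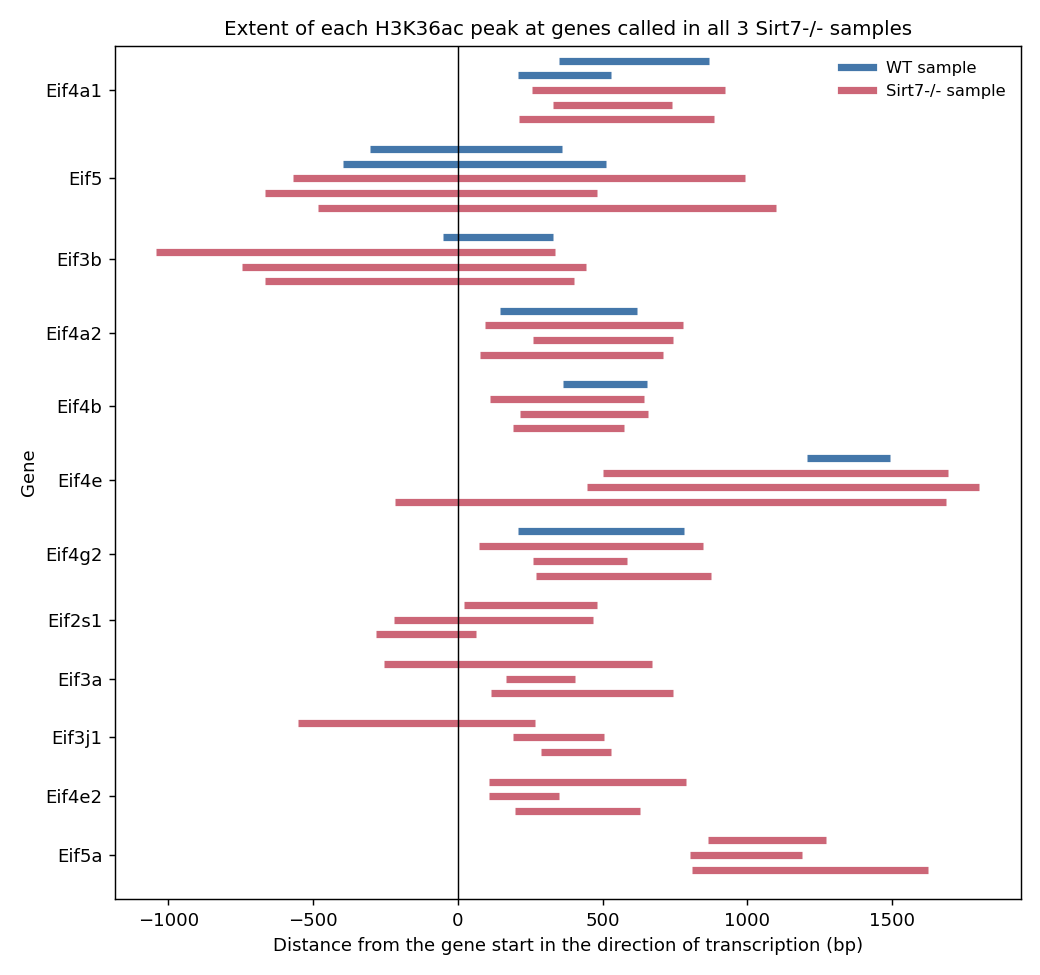
Extent of each peak, in bp from the gene start in the direction of transcription, at the 12 genes called in all 3 Sirt7-/- samples, with 1 bar per sample (blue for WT, red for Sirt7-/-, replicates in numerical order from top to bottom within a colour). Most bars begin downstream of the start, those of Eif5 and Eif3b cross it, and those of Eif4e and Eif5a are centred around 1 kb downstream.

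At 3 genes, Eif4e, Eif4g3 and Eif5a, the midpoint of every peak lay more than 700 bp from the outer start, and at each of them the RefSeq promoter table has a start nearer to the peaks. At Eif4e the midpoints lay 1350 bp downstream in WT replicate 2 and 1097, 1123 and 734 bp in the Sirt7-/- samples. The inner start at 1077 bp was inside all 3 Sirt7-/- peaks, and the replicate 4 peak, from -218 to 1685 bp, also held the outer start. The gene start nearest to these midpoints in the table is that of the microRNA gene Mir1956. The inner promoter, printed above, has 19 CpG dinucleotides and holds CACGTG on 2 places, and the outer one has 11 and none of the motifs searched.

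At Eif5a the midpoints lay 1066, 995 and 1215 bp downstream in Sirt7-/- replicates 2, 3 and 4, and the peaks held 2, 2 and 3 RefSeq starts, in that order. The promoter of the start at 1011 bp has 46 CpG and a GC content of 74.7%, and that of the outer start 11 CpG and 43.3%. At Eif4g3 the midpoints lay 2006 bp downstream in WT replicate 2 and 1870 bp in Sirt7-/- replicate 3, beside RefSeq starts at 1676 and 1677 bp whose promoter has 37 CpG. Neither peak at Eif4g3 contained them.

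Of the 56 genes, 44 had an entry in the promoter table. Their promoters, taken at the start nearest to the gene start, had a median of 23.5 CpG in 300 bases, from 3 in Eif4a3l1 to 50 in Eif1b, beside a median of 13.0 over 17492 protein-coding genes. Genes called in 0, 1, 2 and 3 Sirt7-/- samples had medians of 22, 24, 29 and 23 CpG (n = 15, 11, 7 and 11), with no order from fewer to more calls. Because peaks over the whole genome were more frequent at CpG-rich starts, calls in at least 2 Sirt7-/- samples were also counted by CpG number, in steps chosen after the data had been seen. With 10 to 19 CpG, 4 of 12 initiation factor genes were called, beside 8.73% of all starts. With 20 to 29 CpG it was 7 of 16, beside 16.3%, and with 30 to 65 CpG 7 of 14, beside 28.9%. Of the 2 genes with fewer CpG, Eif4a3l1 and Eif2b5, 0 were called, beside 1.56%. The initiation factor genes had the higher share in each of the 3 upper steps. Eif4e and Eif5a were among the 4 genes called in the step from 10 to 19 CpG, both counted at their outer start with 11 CpG. At its inner start, with 46 CpG, Eif5a would belong to the highest step.

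Motifs were searched by their letters on both strands of the same 44 promoters, and no motif contained another. CACGTG, the core recognised by E-box factors such as MYC, was in 8 of 44 (18.2%, beside 7.91% of all promoters), those of Eif1b, Eif3a, Eif3f, Eif3k, Eif4a1, Eif4g1, Eif4h and Eif5a2. CCGGAAG, a core of ETS factors, was in 14 (31.8%, beside 11.9%), and GGGCGG, the GC box, in 32 (72.7%, beside 46.3%). CCAAT was in 14 (31.8%, beside 39.2%) and TATAAA in 4 (9.09%, beside 13.3%), those of Eif2s1, Eif2s3y, Eif3b and Eif3f. A C at the start base followed by 4 pyrimidines, the form of a terminal oligopyrimidine start, was in 2 (4.55%, beside 2.17%), those of Eif2s3x and Eif3f. Of the 18 genes called in at least 2 Sirt7-/- samples, 5 had the E-box core, 15 the GC box, 3 the CCAAT box and 4 the ETS core. Eif4e and Eif5a were among these 18 and were scored at their outer starts, which hold none of these motifs. The inner start of Eif4e printed above holds CACGTG and CCAAT, and that of Eif5a holds GGGCGG. Of the 15 genes called in no Sirt7-/- sample, 1 had the E-box core, 11 the GC box, 8 the CCAAT box and 7 the ETS core. These are matches of letters, with no test, and none of them shows that a factor binds.

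Other genes of translation, among them elongation and release factors, poly(A)-binding proteins and regulators of eIF2 and eIF4E, were described by the same counts. Of 40 such genes, 22 were called in at least 1 Sirt7-/- sample, 11 in at least 2, 5 in all 3 and 8 in WT, beside 19.3%, 10.3%, 5.09% and 5.12% of all starts. Those called in all 3 Sirt7-/- samples were Atf4, the transcription factor whose mRNA is translated when eIF2 is phosphorylated, Ppp1r15b, which encodes a subunit of the phosphatase that reverses this, Bzw1, which encodes an eIF5-like protein, Etf1, the gene of the release factor that reads stop codons, and Cyfip1, the gene of an eIF4E-binding partner of FMRP. Of these, Cyfip1 was called in no WT sample, Etf1 in 2, and the others in 1 each. Eef1a1, the gene of the main elongation factor, was called in WT replicate 2 and in Sirt7-/- replicates 2 and 3, and 18 of the 40 genes were called in no sample.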

How the data were processed

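The analysis used the H3K36ac peak lists of 6 libraries, 3 per genotype, assigned to WT or Sirt7-/- by their labels. Per the labels and methods, the authors used Trim Galore 0.6.6 for trimming, Bowtie2 2.4.4.1 for alignment (mm10), and SAMtools 1.19.2 and Sambamba to remove duplicates, ambiguous alignments and reads below a mapping quality of 30. Broad peaks came from MACS2 2.2.5 (broad cutoff 0.1), run separately for each library and its input, without pooling. The deposited lists give, per peak, a whole-number score that was not used, the fold over input (a ratio, as the authors' peak caller wrote it), and the -log10 of p and of q, also from the authors' caller. The reads behind each peak are not given there, so the precision of a single call is unknown. The study reported clean reads per library, which differed between libraries, and the counts of called genes were not adjusted for them.

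Gene positions and promoter sequences came from RefSeq tables of GRCm38.p6. Strand came from the promoter table for 44 of the 56 genes and from GENCODE vM39, by symbol and chromosome, for 12. Over all protein-coding genes, 17492 and 3975 had a strand from these sources. A peak within 3000 bp of the gene start was a call, and other starts of a gene counted only in an alternative. The gene table has no exons or introns. Calls were compared per start with Fisher's exact test, two-sided, with Benjamini-Hochberg adjustment over all 21467 starts. A permutation test of peak width was planned for genes called in all 6 samples and was not run, since there were none. Genes with at least 5 calls, or with all 3 Sirt7-/- and no WT calls, are given in full, and promoters are printed for a few of these, for Eif4e, Eif4g1 and Eif2s1 and for the first 2 genes in alphabetical order without a call. The inner starts of Eif4e and Eif5a, the steps of CpG number and the width comparison over both genotypes were chosen after the data had been seen. The genes, complexes and other lists were chosen with earlier results of these data known. Of 41 symbols of other translation genes 40 were found, the last being an older name of 1 of them.

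Alternatives covered stricter -log10 q, peak width, other windows, a minimum overlap, the nearest start only, either end of the gene, every RefSeq start, autosomes, equal numbers of peaks, a common -log10 p, a replicate block and each sample left out. Scripts ran under Python 3.11.15 with SciPy 1.17.1, NumPy 2.4.6, matplotlib 3.10.9 and pandas 2.3.3. The assignment of peaks to starts was tested on 2000 simulated regions, of which 100.0% were assigned correctly.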

Additional observations from a re-analysis of the deposited data

How the results depend on the processing

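The number of initiation factor genes called varied with the peaks kept. With the 64 peaks of highest -log10 q in each list, the mean was 0.667 genes in Sirt7-/- and 1.33 in WT and their difference -0.667, the direction opposite to that of the whole lists. In that setting 0 genes had a peak in every Sirt7-/- sample and no WT peak, 3 were called in at least 1 WT sample and 2 in at least 1 Sirt7-/- sample. With peaks of at least 500 bp, the means were 11.3 genes in Sirt7-/- and 1.67 in WT, the difference 9.67, and the counts 2, 4 and 22 in the same order. With a common minimum -log10 p of 5.99, the lowest value in the shortest list, the Sirt7-/- mean was 14.7 and the difference 11.3. The count with a peak in every Sirt7-/- sample and no WT peak was 2. Of all starts, 6.52%, 6.35% and 6.46% were then called in Sirt7-/- and 2.87%, 0.317% and 1.22% in WT. With a -log10 q of at least 2, the WT mean was 2.33 and 6 genes were called in WT. The shares of all starts in WT were then 2.49%, 0.172% and 0.727%. The ratio of the genes' share to that of all starts in Sirt7-/- was 4.25. Each of these settings keeps fewer peaks, and other causes of the shifts were not tested.

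Leaving out 1 sample at a time gave a WT mean of 2.0 to 7.0 genes, 4 to 12 genes called in at least 1 WT sample and 5 to 10 genes called in every remaining Sirt7-/- sample and in no WT one. The mean of 2.0 and the counts of 4 and 10 were those without WT replicate 2, which held most WT calls. Without Sirt7-/- replicate 2 or 3 the last count was 8. For these counts no share of all starts was given, so they do not compare the genes with others. The ratio in Sirt7-/- ranged from 3.45 to 4.25 over all 17 alternatives, and the difference kept its sign in 17 of 18, equal list lengths being the exception. Counting every RefSeq start of a gene, an alternative chosen after the data had been seen, left all counts of genes as they were.

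The replicate numbers are shared between genotypes but name different mice. Each call was taken as its deviation from the mean call of its genotype at that start. Correlations of these deviations across starts were 0.0281, 0.0196 and 0.00768 between same-numbered samples. Between samples of different number they ranged from -0.0275 to 0.00913. All were small, and the lowest same-numbered value lay within that range. Within numbers, as a replicate block, the Sirt7-/- sample exceeded the WT sample by 13, 22 and 21 genes, a mean of 18.7, which equals the unpaired difference. No test was run on either.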
